A study of Homo sapiens with 6 samples.

Results

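The netrins, semaphorins, ephrins and Slits are ligands that steer growing axons and migrating cells, and the UNC5, plexin, Eph and Robo proteins are their receptors. The set described here holds 65 genes of the 18129 measured with 1 gene symbol. They were chosen by name, as every NTN, SEMA, PLXN, EPH, EFN, SLIT and ROBO gene with a numbered symbol and the UNC5A to UNC5D genes, and each was read from its probe set with the highest mean over the 6 arrays. SLITRK genes, antisense transcripts and UNC5CL were left out. By role, 35 are ligands and 30 are receptors.

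The cells, UMUC3-c31, take their name from UMUC3, an established human bladder carcinoma line; the origin of c31 is not stated in the labels. All cells spent 24 h in charcoal-stripped serum, which is low in steroids. They then received 10 nM R1881, a synthetic androgen, or ethanol vehicle for 24 h, with 3 arrays per group. The values are log2 RMA values, a normalized probe set signal, and a difference is R1881 minus vehicle on that log2 scale.

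Netrins are secreted relatives of laminins. Members of the family signal through the UNC5 receptors and through DCC and neogenin, and UNC5 receptors mediate repulsion. Whether NTN4 acts on UNC5B was not tested here. Semaphorins bind plexins, and the secreted class 3 semaphorins mostly need a neuropilin as co-receptor. Ephrins are bound to the membrane and signal both into the Eph-bearing cell and back into their own, and in epithelia they help to sort and bound cell layers. Slits bind Robo receptors and repel. Many of these families also act on blood vessels and on carcinoma cells.

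The arrays were near one another in overall signal, with medians of 5.49 to 5.51. Over all genes, principal component 1 (43.2% of the variance) set the groups apart: the R1881 arrays lay between -10.2 and -9.41 and the vehicle arrays between 7.24 and 14.03. FKBP5, a cochaperone that androgens induce, averaged 10.04 with R1881 and 8.55 with vehicle. CD44, the gene in the series title, averaged 12.32 and 12.60 in the same order. Background was taken as 4.99, the 90th percentile of 423 olfactory receptor and keratin-associated protein genes, since no detection calls were used. Of the 9 urothelial markers measured (uroplakins, GATA3, PPARG, FOXA1, KRT20 and KRT5) none averaged above 5.08 with R1881 or above 5.03 with vehicle, so the defining markers of differentiated urothelium lay at or near background. Of the 5 epithelial markers only the keratin genes KRT8 and KRT18 lay above background, while EPCAM, CDH1 and KRT19 did not. KRT18 averaged 10.4 with R1881 and 10.7 with vehicle and fell (limma adjusted p = 0.00830). All 4 mesenchymal markers were above background. VIM averaged 14.1 in both groups, and the fibronectin gene FN1 rose by 0.73 (limma adjusted p = 0.00473). What part these shifts have in the results on guidance genes was not tested. None of the 5 fibroblast markers was above background. Among the 6 neuronal or glial markers 3 were above it in both groups. SNAP25 averaged 8.03 with R1881 and 8.09 with vehicle, SYP 7.25 and 7.23, and GFAP 5.58 and 5.71. Among the 3 immune markers 1 was above it in 1 group, CD3E at 5.02 with R1881 and 4.83 with vehicle.

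R1881 changed 4 of the 65 guidance genes at an adjusted p under 0.05 (limma, Benjamini-Hochberg over all genes). The netrin receptor gene UNC5B and the ephrin genes EFNB1 and EFNB2 rose, the netrin gene NTN4 fell, and 61 did not pass. The 4 genes are 6.15% of the set, beside 2.42% of all genes in either direction. In all, 1.6% of genes rose and 0.816% fell. The median difference was 0.02 over the guidance genes and 0.00 over all genes. At an unadjusted p under 0.05 there were 12 guidance genes, or 18.5%, beside 14.3% of all genes. The 2 groups did not overlap for 14 of the 65, which is 21.5% of them and stands beside 18.5% of all genes. Background was exceeded in 1 or both groups by 38 guidance genes, the 4 that passed among them.

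**Figure D1:**
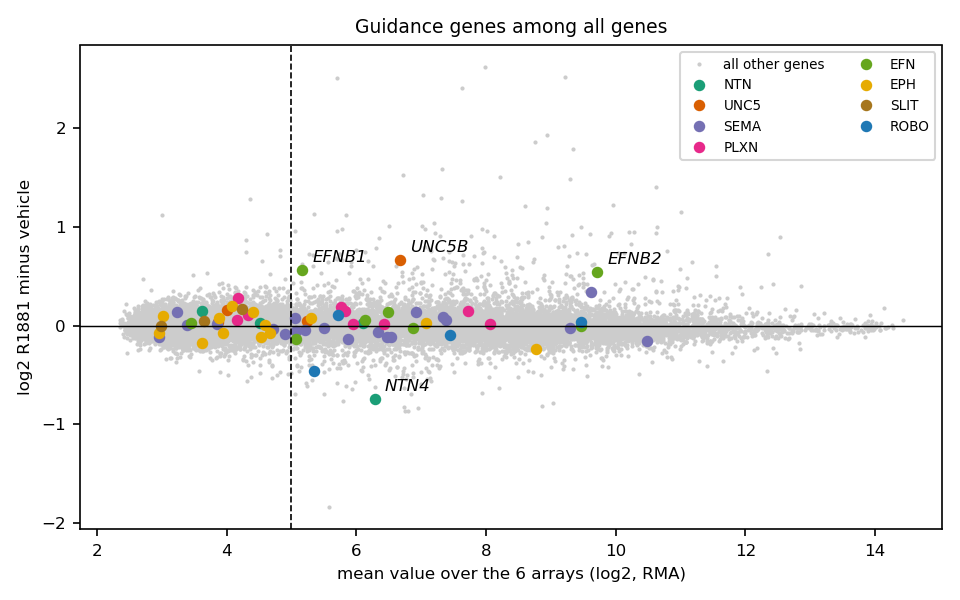
Each point is 1 gene, with its mean log2 value over the 6 arrays across and its log2 difference, R1881 minus vehicle, upward; coloured points are the 65 guidance genes by family, and the dashed line is the background level of 4.99. Of the 4 named genes UNC5B, EFNB1 and EFNB2 lie above the grey cloud around 0 and NTN4 lies below it, while most other guidance genes lie within it.

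Among the ligands, the netrin NTN4 gave the largest difference of the set. NTN4 binds laminins and is found in basement membranes and vessel walls. Its values were 5.83, 5.82 and 6.07 with R1881, against 6.65, 6.62 and 6.69 with vehicle. Every R1881 array lay below every vehicle array, and the fold was 0.596 with a 95% confidence interval of 0.528 to 0.673. The difference was -0.75 ± 0.07 (SE, n = 3 arrays per group) with a limma adjusted p of 0.00343. An exact permutation of 3 arrays against 3 cannot give a two-sided p under 0.10, which limits any single-gene test outside the fit. A dimmer second NTN4 probe set read 5.30, 4.89 and 5.01 with R1881 and 5.26, 5.30 and 5.22 with vehicle. The groups overlap there and the difference was -0.19 ± 0.10 (limma adjusted p = 0.489 over all probe sets). With the mean of both sets in place of the brighter one, NTN4 stood at -0.47 and still passed (limma adjusted p = 0.00760).

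The other netrins gave no call. NTN3 averaged 6.11 ± 0.03 with R1881 and 6.08 ± 0.14 with vehicle (SD, n = 3 each). NTN1, the netrin best known from the spinal cord floor plate, read between 4.31 and 4.65 with R1881 and between 4.43 and 4.62 with vehicle, and NTN5 was also below background in both groups. Of the 4 netrin genes only NTN4 and NTN3 were therefore measured above background.

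UNC5B, a netrin receptor known from vessels and as a dependence receptor that can trigger cell death when unbound, was the 1 receptor that changed. It read 7.06, 6.90 and 7.05 with R1881, against 6.31, 6.25 and 6.47 with vehicle. The groups were well separated, and the fold was 1.58 (95% confidence interval 1.40 to 1.78). The difference was 0.66 ± 0.07 with a limma adjusted p of 0.00550. Its second probe set was higher as well, at 5.94, 5.54 and 6.04 with R1881 and 5.12, 5.31 and 5.35 with vehicle. That set's groups did not overlap, but its difference of 0.58 ± 0.13 did not pass over all probe sets (limma adjusted p = 0.117). Another set, below background, stood at 0.20.

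The remaining UNC5 genes lay low. UNC5A averaged 5.26 ± 0.06 with R1881 and 5.22 ± 0.10 with vehicle, just above background. UNC5C read 4.16, 4.07 and 4.03 with R1881 and 3.97, 3.85 and 3.97 with vehicle, all below background, where no fold is given. UNC5D was at background level too. Among the other netrin receptors, which belong to the partner list described further on, neogenin (NEO1) averaged 6.96 ± 0.07 with R1881 and 7.0 ± 0.08 with vehicle, with a difference of -0.05. DCC was at 2.83 and 2.82, below background in both groups.

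**Figure D2:**
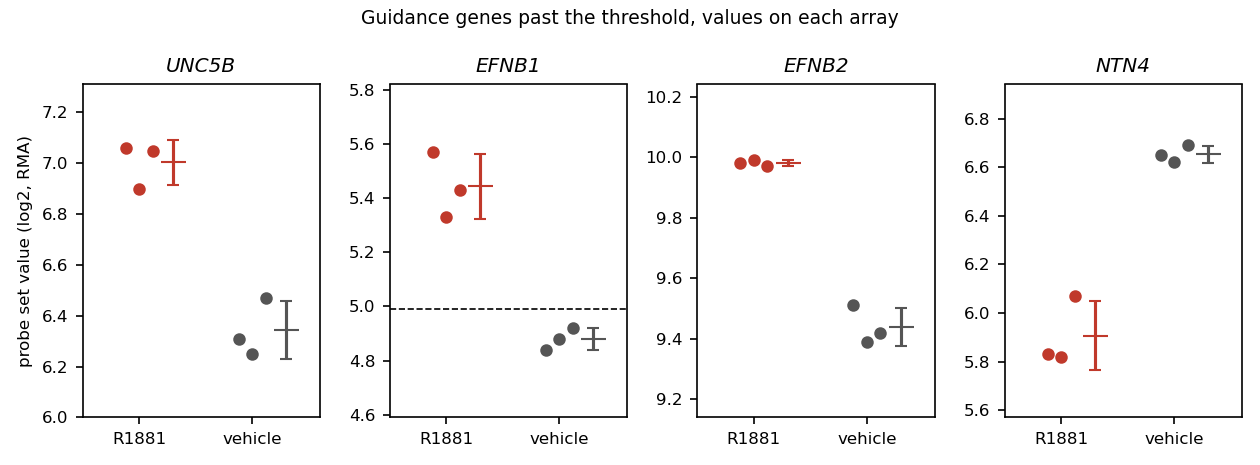
Log2 probe set values of the 4 guidance genes past the threshold, one panel per gene, with R1881 left of vehicle; dots are the 3 arrays of a group, bars are mean and SD, each panel has its own scale that does not start at 0, and the dashed line is the background level. In every panel the 3 R1881 dots and the 3 vehicle dots are apart, higher with R1881 for UNC5B, EFNB1 and EFNB2 and lower for NTN4.

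Both ephrin genes that rose encode B ephrins, which cross the membrane and have a cytoplasmic tail. None of the 5 A ephrins, which hang on a lipid anchor, passed, and the difference between the classes was not tested. EFNB2 is the ligand of EPHB4 and marks arterial endothelium in development. It read 9.98, 9.99 and 9.97 with R1881, against 9.51, 9.39 and 9.42 with vehicle. The 3 R1881 values were within 0.02 of each other and above all vehicle values. The difference was 0.54 ± 0.05, a fold of 1.45 (95% confidence interval 1.35 to 1.57), with a limma adjusted p of 0.00200. All 4 EFNB2 probe sets were higher with R1881, by 0.54 to 0.68, and 3 of them passed over all probe sets.

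EFNB1, a ligand of EphB receptors that is needed for boundaries in the skull and face, was dim. It read 5.57, 5.33 and 5.43 with R1881, against 4.84, 4.88 and 4.92 with vehicle. The vehicle arrays all lay below background and the R1881 arrays above it. The R1881 mean was 1.37 times the background level, a figure that carries no sampling error and sets no lower limit on the fold. The fit gave a fold of 1.48 (95% confidence interval 1.32 to 1.65). The difference was 0.56 ± 0.07 with a limma adjusted p of 0.00746. The EFNB1 set used carries an s before "_at", which marks probes that match several transcripts, so other RNA may add to its signal. Both other EFNB1 sets lay below background. The brighter of them, the set that an s or x rule would leave, stood at 0.05 and did not pass (limma adjusted p = 0.788), which ends the call.

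EFNB3 averaged 5.0 ± 0.22 with R1881 and 5.13 ± 0.07 with vehicle, a difference of -0.13 ± 0.11 that did not pass. The A ephrins above background were EFNA1, EFNA3, EFNA4 and EFNA5. Their differences were 0.05, -0.02, 0.13 and 0.00 with overlapping groups in all 4. EFNA5 averaged 9.46 in both groups, on a set with an s in its name, with a fold between 0.914 and 1.09 at 95% confidence. EFNA2 lay below background.

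The regions before the gene starts are shown for the ephrin pair that rose and for NTN4, which fell, so that their base make-up can be compared. They are the 250 bases before the start in RefSeq, build GRCh38.p14, read in the direction of the gene. Promoters were found for 56 of the 65 guidance genes. UNC5B, which also rose, was not among them, so its region is missing from the comparison. Capitals mark motif matches on either strand. One motif is GGGCGG, the GC box that factors of the Sp family bind. Another is CCAAT, the box that nuclear factor Y binds in many promoters. Those motifs were added after the sequences had been seen. The last is AGAACA, a partial site for androgen and glucocorticoid receptors. EFNB2 lies at chr13:106535663-106535912 on the minus strand and EFNB1 at chrX:68828771-68829020 on the plus strand. NTN4 has 2 starts, at chr12:95790765-95791014 and chr12:95791156-95791405, both on the minus strand.
EFNB2: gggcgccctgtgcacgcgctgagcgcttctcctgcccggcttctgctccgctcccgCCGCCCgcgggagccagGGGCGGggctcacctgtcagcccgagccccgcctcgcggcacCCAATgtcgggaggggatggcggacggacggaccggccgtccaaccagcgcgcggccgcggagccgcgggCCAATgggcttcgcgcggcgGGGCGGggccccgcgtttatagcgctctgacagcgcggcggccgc
EFNB1: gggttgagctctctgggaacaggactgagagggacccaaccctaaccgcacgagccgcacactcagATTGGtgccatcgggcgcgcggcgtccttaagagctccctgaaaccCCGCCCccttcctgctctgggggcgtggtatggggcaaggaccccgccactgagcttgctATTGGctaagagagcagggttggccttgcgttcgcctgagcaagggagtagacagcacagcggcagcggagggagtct
NTN4, inner start: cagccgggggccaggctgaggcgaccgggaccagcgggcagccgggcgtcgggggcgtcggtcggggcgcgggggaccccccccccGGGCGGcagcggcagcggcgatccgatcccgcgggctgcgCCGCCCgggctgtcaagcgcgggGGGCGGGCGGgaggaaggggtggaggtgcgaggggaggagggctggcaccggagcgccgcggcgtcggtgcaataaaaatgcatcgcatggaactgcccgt
NTN4, outer start: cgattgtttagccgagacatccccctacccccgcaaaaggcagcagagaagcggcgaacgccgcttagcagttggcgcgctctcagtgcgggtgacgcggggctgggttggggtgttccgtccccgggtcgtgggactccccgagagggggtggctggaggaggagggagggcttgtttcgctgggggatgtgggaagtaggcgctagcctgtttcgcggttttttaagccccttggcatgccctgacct

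The ephrin regions each hold 2 CCAAT matches. Of all 35116 promoter regions of this length 9.53% hold 2 or more, as do 9.2% of the guidance regions. Neither NTN4 region holds 1. EFNB2 has 3 GGGCGG matches, EFNB1 has 1, and the NTN4 regions have 4, some of them overlapping, and 0. At least 1 such match is in 42.6% of all regions and in 70.1% of the 87 regions of the guidance genes. AGAACA was in none of these 4 sequences, beside 12.4% of all regions and 2.3% of the guidance regions. The full element, an inverted repeat of AGAACA, was in 0.00285% of all regions. The GC content was 78.4% for EFNB2, 63.6% for EFNB1 and 78.4% and 64.4% for NTN4, with a median of 58.0% over all regions. A missing match says only that these letters are not in this window.

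The Eph receptors were mostly dark on these arrays: of 13 measured, 10 lay below background in both groups and none passed. EPHB2 is not among the genes measured, so nothing can be said of it here. EPHA2, a kinase that responds to A ephrins and is common in carcinoma cells, was the Eph gene with the smallest p. It read 8.61, 8.73 and 8.63 with R1881, against 8.76, 8.99 and 8.94 with vehicle. The groups did not overlap, yet the difference of -0.24 ± 0.07 gave a limma adjusted p of 0.187. Its second set gave much the same, 7.71, 7.59 and 7.74 with R1881 and 7.89, 7.92 and 7.91 with vehicle, a difference of -0.23. With the mean of both sets EPHA2 passed (limma adjusted p = 0.0488). EPHB4, the receptor of EFNB2, averaged 7.09 ± 0.02 with R1881 and 7.06 ± 0.03 with vehicle. EPHB3 averaged 5.34 ± 0.22 and 5.27 ± 0.11 in that order, with a difference of 0.07 ± 0.11. The others ranged from -0.18 for EPHA3 to 0.20 for EPHA10, both below background.

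None of the 20 semaphorins passed, and 14 of them lay above background. Their median difference was -0.03, with 8 higher and 12 lower by sign, beside 9034 higher and 8820 lower over all genes. SEMA4B, a membrane-bound class 4 semaphorin, came nearest. It read 9.68, 9.87 and 9.83 with R1881, against 9.30, 9.58 and 9.47 with vehicle, so the groups did not overlap. The difference was 0.34 ± 0.08, a fold of 1.27 (95% confidence interval 1.10 to 1.46), with a limma adjusted p of 0.117. Its second set read 7.34, 7.31 and 7.42 with R1881 and 6.95, 7.17 and 7.20 with vehicle. SEMA4B passed under a trended and robust prior (limma adjusted p = 0.0261).

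Of the 7 class 3 semaphorins, the secreted ones, 6 were lower by sign, beside 8820 of all 18129 genes. Background was not exceeded in either group by 3 of the 7. The sign depended in part on the set. SEMA3B, below background, was at 0.02 with the mean of its sets, and the second SEMA3A set stood at 0.01. SEMA3C, which acts through neuropilins in heart and neural crest development, read 10.37, 10.49 and 10.33 with R1881, against 10.53, 10.52 and 10.61 with vehicle. The gap between the groups was narrow, and the difference of -0.16 ± 0.06 did not pass (limma adjusted p = 0.282). All 6 SEMA3C sets were lower with R1881, by -0.22 to -0.07, and none passed over all probe sets. SEMA3F was lower on all 3 of its sets as well, by -0.25 to -0.11, with overlapping groups on the brightest. SEMA3A, the collapsing factor of sensory axons, averaged 9.27 ± 0.03 with R1881 and 9.30 ± 0.05 with vehicle, and its fold lay between 0.909 and 1.06 at 95% confidence. The co-receptor NRP1 averaged 7.01 ± 0.11 with R1881 and 7.16 ± 0.10 with vehicle, and NRP2 averaged 5.38 ± 0.02 and 5.39 ± 0.09, without a call for either.

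The other class 4 genes SEMA4F and SEMA4C stood at 0.14 ± 0.06 and 0.09 ± 0.05. SEMA4F overlapped, at 6.87 to 7.04 with R1881 and 6.80 to 6.90 with vehicle. Its 4 sets lay between -0.12 and 0.15, and with their mean SEMA4F stood at 0.055. SEMA4D, the ligand of PLXNB1, read 6.26 to 6.33 with R1881 and 6.21 to 6.54 with vehicle. The class 5 gene SEMA5A stood at -0.14 and was lower on all 3 of its sets above background. SEMA7A, which hangs on a lipid anchor, stood at -0.11, and the 4 class 6 genes lay between -0.02 and 0.08. Those below background were SEMA3B, SEMA3D, SEMA3E, SEMA4A, SEMA4G and SEMA6A.

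No plexin passed the threshold. On the probe sets that stand for them all 9 were higher by sign with R1881, by 0.02 to 0.28, but the sign depended on the set and on single arrays. The second PLXNC1 set, below background, stood at -0.26, and PLXNC1 was at -0.10 with the mean of its sets. A PLXNA1 set below background stood at -0.03, and the 4 PLXNB2 sets lay between -0.13 and 0.20. Without R1881 replicate 2, 5 plexins were higher and 3 lower, and without vehicle replicate 1, 7 were higher and 2 lower. The median difference of the 9 was 0.11, beside 0.00 over all genes. Groups did not overlap for 1 of the 9, which is 11.1% and stands beside 18.5% of all genes. That gene was PLXNB1, the SEMA4D receptor, at 5.86, 5.82 and 6.0 with R1881, against 5.72, 5.76 and 5.76 with vehicle. Its difference of 0.15 ± 0.06 gave a limma adjusted p of 0.314. PLXND1, a vascular plexin that binds SEMA3E, averaged 5.86 ± 0.20 with R1881 and 5.67 ± 0.03 with vehicle. PLXNA1, which pairs with neuropilins, averaged 7.79 ± 0.10 and 7.65 ± 0.14 in that order, and these groups overlapped. The largest difference, 0.28 ± 0.12, was in PLXNA2, which lay below background in both groups. PLXNA3, PLXNB2 and PLXNB3 were all at 0.02.

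The Slit ligands SLIT1, SLIT2 and SLIT3 were below background with R1881 and with vehicle, so no fold is given for them. All 4 Robo receptors were above it and none passed. ROBO1, the main Slit receptor outside the nervous system, read 9.53, 9.57 and 9.35 with R1881, against 9.43, 9.46 and 9.46 with vehicle, with a fold between 0.921 and 1.14 at 95% confidence. ROBO2 stood at 0.11 ± 0.06 and ROBO3 at -0.09 ± 0.05. ROBO4, the Robo of endothelium, read 5.13, 5.08 and 5.12 with R1881, against 5.34, 6.0 and 5.36 with vehicle. Its difference of -0.46 ± 0.17 did not pass (limma adjusted p = 0.288) and was -0.24 without vehicle replicate 2, the array at 6.0. Of the 4 endothelial markers only VWF was above background, at 5.13 with R1881 and 5.07 with vehicle.

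**Figure D3:**
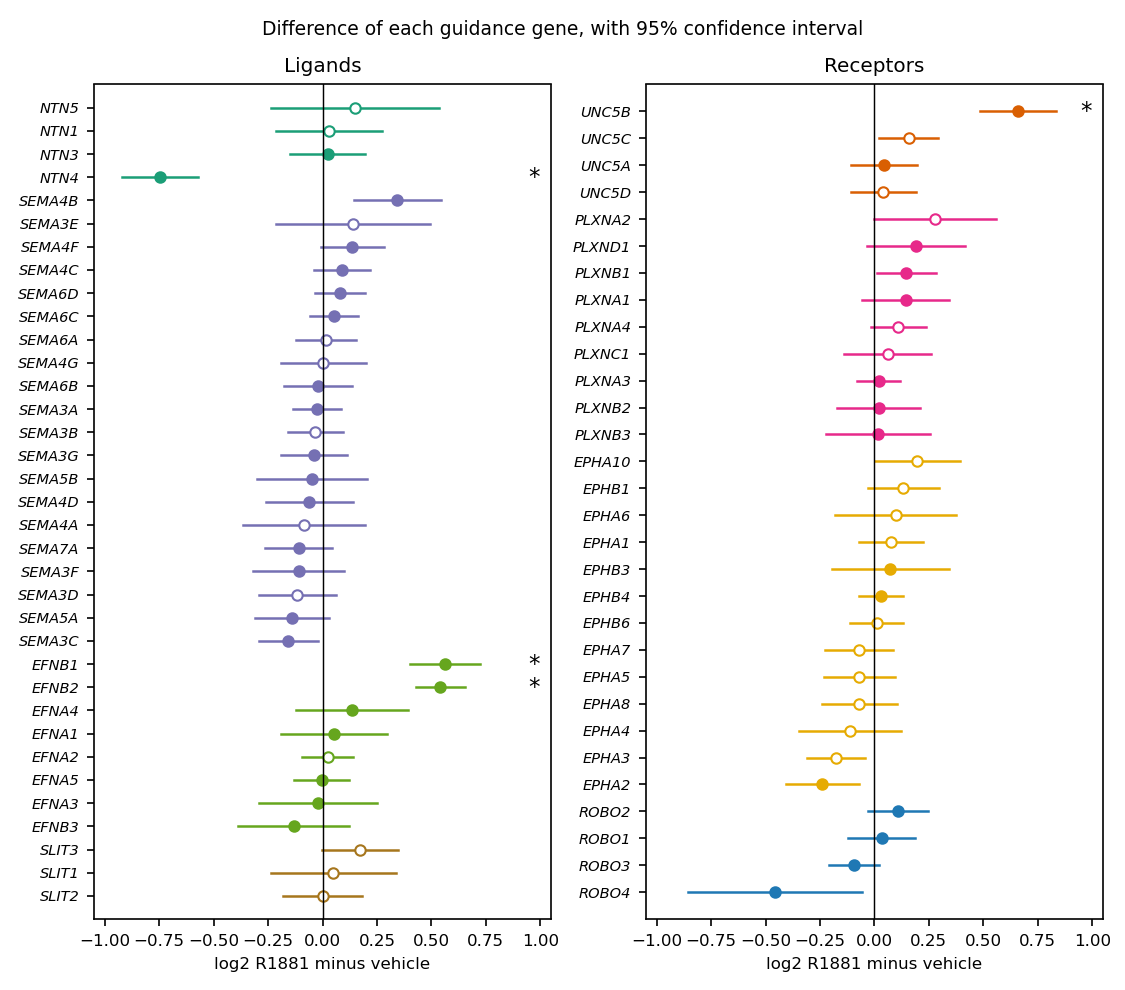
Log2 difference, R1881 minus vehicle, of each of the 65 guidance genes with its 95% confidence interval from the fit, ligands left and receptors right, coloured by family; open points were below background in both groups and stars mark an adjusted p under 0.05. The starred genes are UNC5B, EFNB1, EFNB2 and NTN4, and all 9 plexins lie right of 0 without a star on the sets shown.

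Most guidance genes have several probe sets, and these gave a second reading of the same arrays. Over the 183 sets of the 65 genes, 5 passed as higher and 1 as lower when all 49193 sets were tested. These 6 are 3.28% of the guidance sets, beside 1.54% of all sets. The sets that passed belong to the same 4 genes: 3 to EFNB2 and 1 each to EFNB1, UNC5B and NTN4. Sets of 1 gene share the RNA of the same samples and are not replicates.

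**Figure D4:**
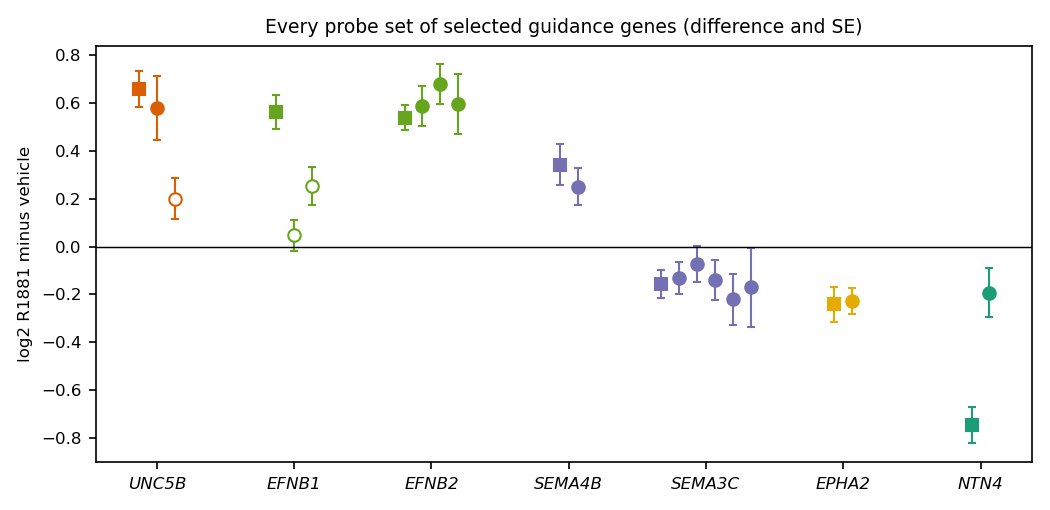
Log2 difference, R1881 minus vehicle, with SE for every probe set of 7 guidance genes, brightest first within a gene; squares are the sets that stand for the gene, and open symbols lay below background. All 4 EFNB2 sets lie between 0.54 and 0.68 and all 6 SEMA3C sets lie below 0, while the NTN4 sets stand at -0.75 and -0.19 and the dim EFNB1 sets at 0.05 and 0.25.

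Guidance receptors act through co-receptors, proteases and cytoplasmic proteins that reshape actin and microtubules. A list of such partners was written from general knowledge, but with earlier results of these data known. Its shares may therefore not be independent of those results. Of the 77 partners measured, 4 rose, none fell and 73 did not pass by limma, while 16 had an unadjusted p under 0.05. The 4 are 5.19% of the list, beside 2.42% of all genes, and the list's median was 0.03. The 16 are 20.8% of the list, beside 14.3% of all genes. Background was exceeded by 77.9% of the partners but by 60.9% of all genes, so these shares compare sets that differ in brightness. Among genes above background, 281 of 11049 rose and 145 fell, while 4 of 60 partners rose. All 4 are among the 50 cytoplasmic effectors of the list. None of the 16 co-receptors, 8 further ligands or 3 proteases passed.

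MICAL2, an enzyme that oxidises actin and belongs to a family found in flies as plexin partners, gave the largest difference. It read 9.96, 9.94 and 9.94 with R1881, against 9.28, 9.36 and 9.36 with vehicle. The groups lay far apart for their spread, and the difference was 0.61 ± 0.04, a fold of 1.53, with a limma adjusted p of 7.57e-04. Of its 5 probe sets 4 passed, and the remaining one was below background. The other members of the family differed less: MICAL1 stood at 0.22 ± 0.04 (limma adjusted p = 0.0567) and MICAL3 at -0.04 ± 0.07. MICAL1 passed under a trended and robust prior (limma adjusted p = 0.0199) and without dim genes (0.0174). It also passed with the mean of all probe sets (0.0364) and with array weights (0.0460), but in no fit with 1 array fewer.

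The other 3 were collapsin response mediators, proteins that bind tubulin and relay SEMA3A signals. DPYSL2 read 11.68, 11.68 and 11.61 with R1881, against 11.38, 11.41 and 11.40 with vehicle. CRMP1 read 8.30, 8.42 and 8.36 with R1881, against 8.08, 8.13 and 8.11 with vehicle. DPYSL4 read 5.44, 5.40 and 5.41 with R1881, against 5.07, 5.15 and 5.15 with vehicle. All 3 had groups that did not overlap, and the differences were 0.26 ± 0.04, 0.25 ± 0.05 and 0.29 ± 0.04 for DPYSL2, CRMP1 and DPYSL4. The limma adjusted p values were 0.0290, 0.0481 and 0.0201 in the same order. Each lost its call in every one of the 6 fits with 1 array fewer (limma adjusted p up to 0.123, 0.166 and 0.0843), so that MICAL2 was then the 1 partner that passed. Counted over all their sets, 2 of 4 DPYSL2 sets, 1 of 3 DPYSL4 sets and 0 of 4 CRMP1 sets passed when all probe sets were tested, although every set of theirs above background was higher with R1881. With the mean of all its sets DPYSL4 stood at 0.17 (limma adjusted p = 0.196). CRMP1 did not pass with that mean (0.18, limma adjusted p = 0.0883), with arrays centred (0.0532) or quantile-normalized again (0.0553), or on a set without s or x (0.332). With the replicate block the limma adjusted p of the 3 genes was 0.102 to 0.112. The relatives DPYSL3 and DPYSL5 stood at -0.09 ± 0.06 and 0.11 ± 0.06.

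L1CAM, an adhesion protein and SEMA3A co-receptor, read 9.66, 9.78 and 9.68 with R1881, against 9.05, 9.31 and 9.46 with vehicle. The vehicle arrays were spread widely, and the difference of 0.43 ± 0.10 did not pass (limma adjusted p = 0.102). L1CAM passed only under a trended and robust prior (limma adjusted p = 0.0217) and without dim genes (0.0471). MET, a kinase that pairs with B plexins, was at 11.4 in both groups. ADAM10, a protease that sheds ephrins, averaged 7.74 ± 0.04 with R1881 and 7.69 ± 0.10 with vehicle. MYO10, a cytoplasmic effector of the list, averaged 9.85 with R1881 and 10.11 with vehicle, and its groups did not overlap. Its difference of -0.26 ± 0.06 did not pass (limma adjusted p = 0.115).

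**Figure D5:**
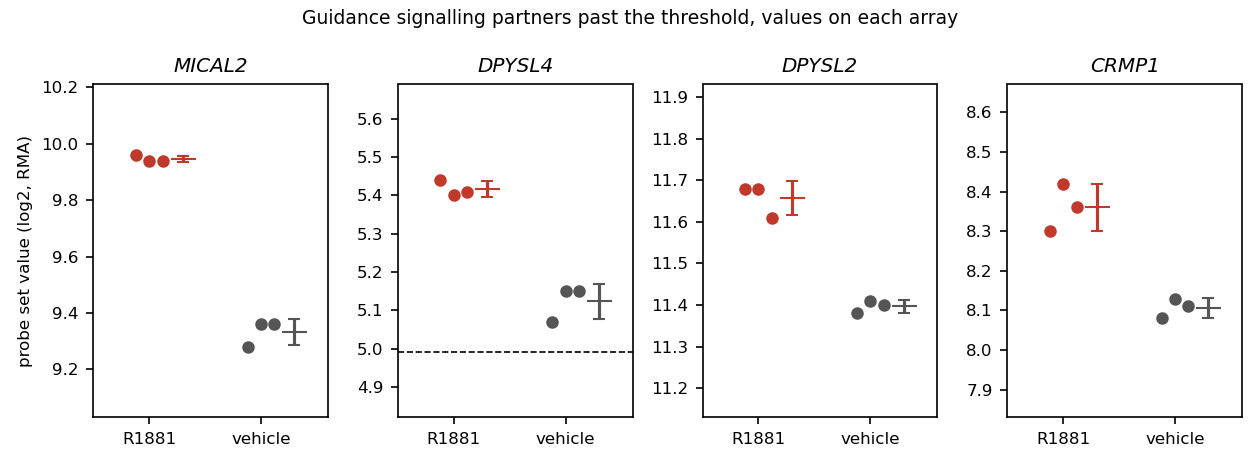
Log2 probe set values of the 4 signalling partners past the threshold, one panel per gene on its own scale that does not start at 0, with R1881 left of vehicle; dots are the 3 arrays of a group and bars are mean and SD. In each panel all 3 R1881 dots lie above the 3 vehicle dots, by most in MICAL2.

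EFNB2, UNC5B, NTN4 and EFNB1 each passed in all 6 fits that left out 1 array, at adjusted p values of up to 0.0201, 0.0422, 0.0282 and 0.0481. Over all genes the number that passed fell to between 209 and 270 in those fits, against 438 with every array.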

How the data were processed

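Total RNA of 6 samples, 3 with R1881 and 3 with vehicle, was biotin-labelled and measured on Affymetrix arrays. The authors deposited log2 values per probe set made with RMA, per the submitters' processing notes; no version is stated there. RMA quantile-normalizes arrays, so a shift of all transcripts would be removed. Values are rounded to 2 decimals, and scanner files were not used. Having 3 arrays per group also limits the precision.

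Of 49193 probe sets, 44898 had 1 symbol in the platform annotation, 1825 had several and 2470 had none; the first entered, 1 set per gene. R1881 was compared with vehicle by limma 3.58.1 in R 4.3.3 (lmFit, eBayes, two-sided, Benjamini-Hochberg over 18129 genes, threshold 0.05), and the fit was tested on simulated data. Apart from the shared background level, levels were not compared between genes, since probe affinity differs. That limit also applies to whether a gene is called above or below background.

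Named genes were members past the threshold and, per family and for the partners, up to 3 above background with the smallest p; other members named were chosen after their values were seen. Members and lists were chosen with earlier results of these data known. Of 81 partners listed, 77 were measured. Another planned check gene was not analysed here. The 3 replicates are called biological in the design text; whether they were separate cultures is not stated, so p-values measure the spread between these samples. No array repeated another: the closest pair shared 9.02% of its values. Alternatives were other priors, scalings, probe set rules, array weights, a filter on dim genes, a replicate block and leaving out each array.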

Additional observations from a re-analysis of the deposited data

How the results depend on the processing

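Over 14 alternative settings UNC5B, EFNB2 and NTN4 passed in all, and EFNB1 in all but the one without sets carrying an s or x. The number of guidance genes lower with R1881 was 2 with the mean of all probe sets (EPHA2 added). Of the partners, 8 passed with a trended and robust prior (7 higher, 1 lower) and 8 without dim genes (7 and 1), and 1 passed with the replicate block, that 1 being higher. The lower partner was MYO10 in both settings (limma adjusted p = 0.0221 and 0.04905). Without any 1 array the partner count was 1 to 1, likewise for those higher. Over all genes 895 passed with the trended and robust prior (475 higher, 420 lower), 757 without dim genes (334 lower; 423 higher) and 222 with the replicate block (170 higher, 52 lower); leaving out 1 array gave 209 to 270 (152 to 198 higher, 53 to 72 lower). The cause of these shifts was not tested. The replicate numbers gave correlations of deviations of 0.092, 0.057 and 0.033 between same-numbered arrays, too low to count as pairs, although every array correlated best with its own number; the block kept all 4 guidance calls. Over all settings the sign turned at least once for 32 of the 65 guidance genes, none of which had passed, and with the mean of all probe sets for 9. Among the genes named by the fixed rule, 4 turned: NTN3 stood at -0.0059 with array weights and at -0.0033 and -0.0283 without vehicle replicates 1 and 2, UNC5A at -0.0117 without vehicle replicate 1 (over the 6 leave-outs NTN3 reached 0.1017 and UNC5A 0.08), and with the mean of all probe sets EFNB3 stood at 0.0256 and EPHB4 at -0.016. Centring moved all differences by -0.01. Dim genes limit what can be seen, since 27 of the 65 lay below background in both groups.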
